A study of Mus musculus with 6 samples.

Results

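The Slc25 family encodes the mitochondrial solute carriers, which sit almost all in the inner mitochondrial membrane and exchange nucleotides, phosphate, organic acids, amino acids and cofactors between the cytosol and the matrix. In skeletal muscle the best known are the ADP/ATP carrier and the phosphate carrier, which supply oxidative phosphorylation, and the carriers of the malate-aspartate shuttle, which brings reducing equivalents from the cytosol into mitochondria. Members were the genes whose platform symbol starts with Slc25a, each measured by a probe set that lists that gene alone, and the carnitine carrier Slc25a20 was left out. This gave 45 genes, each with 1 probe set, of the 22180 genes named by 1 symbol and of the 41345 probe sets on the array. A further 1 probe set that lists Slc25a35 together with Rangrf was not assigned to either gene.

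The values came from gastrocnemius of 3 transgenic mice and 3 WT mice, males of 3 months and of the strain given as C57 in the labels and as C57BL/6 in the paper, with 1 Affymetrix Mouse Gene 2.0 ST array per mouse. The paper describes the transgenic mice as an F1 generation that carries a porcine DGAT1 cDNA behind the porcine MCK promoter, which is active in muscle. The sample labels give their genotype as DGAT1 knockout transgenic. Mouse Dgat1, whose probes need not detect the porcine cDNA, differed by 0.15 on the log2 scale between transgenic and WT mice (SE, the standard error, 0.23, and adjusted p = 1 from limma). Defining genes of muscle fibers averaged log2 values of 12.7 to 12.8 in transgenic mice and 12.8 to 12.9 in WT mice over 10 genes. WT replicates 1 and 2 stood apart from the other mice in many genes, and hepatocyte markers differed widely between mice of both groups. RNA of a whole muscle was measured, so fewer cells of a type and less RNA per cell cannot be told apart.

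No Slc25 gene was called between transgenic and WT mice. The study threshold asks for both a 1.5-fold difference and an unadjusted p under 0.05, and it was passed by 0 of 45 members in limma's moderated test, compared with 1.49% of all probe sets and 0.537% of genes taken with 1 probe set each. No member had an unadjusted p under 0.05 in that test, where 2.9% of all probe sets and 1.72% of genes did, and each member's adjusted p was 1. By the methods' t-test 3 members, Slc25a34, Slc25a35 and Slc25a46, had an unadjusted p under 0.05 (3.3% of all probe sets) and 0 were past the study threshold (0.68% of all probe sets). Log2 fold changes, given throughout as transgenic minus WT, ran from -0.33 for Slc25a34 to 0.32 for Slc25a10, and 24 of the 45 were smaller than 0.1 in either direction. The median was -0.05, beside -0.01 over all probe sets. Means were lower in transgenic mice for 28 members and higher for 17. The lower share is 62.2%, beside 51.2% of all probe sets and 54.8% of genes. Without WT replicate 1 the median was 0.05 and 18 members had lower means, and without WT replicate 2 it was -0.12 with 35 lower, so the direction of the median rested on WT replicate 1.

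The confidence intervals say how large a change these 6 arrays could have missed. For 28 members the 95% interval of the fold change lay wholly between 0.667 and 1.5, which is 62.2%, beside 43.7% of all probe sets and 57.6% of genes. It reached above 1.5 for 11 members and below 0.667 for 9, and for Slc25a30, Slc25a15 and Slc25a44 it did both. For these genes limma's interval did not exclude a 1.5-fold change. Its width draws on the variance of all probe sets as well as on the spread between these mice. For Slc25a35, one of those that reached above 1.5, the SE was 0.14 in limma and 0.083 by the methods' t-test.

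**Figure D1:**
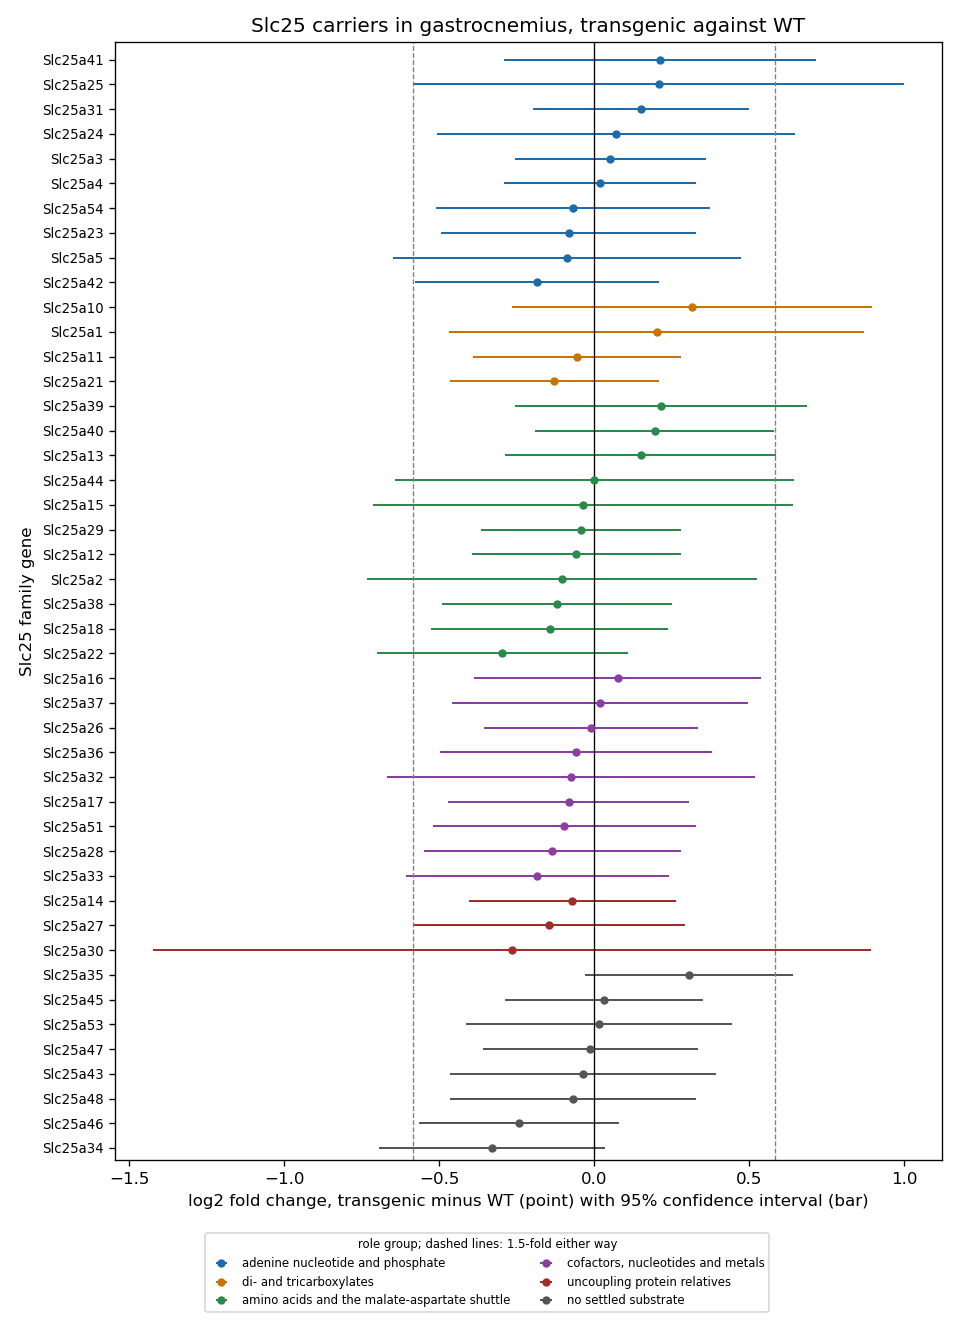
Log2 fold change (transgenic minus WT, x axis) of the 45 Slc25 genes (y axis, colored by role group), with 95% confidence intervals from limma as bars and 1.5-fold limits as dashed lines. The points lie between -0.33 and 0.32, inside both dashed lines, and every bar crosses 0.

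The carriers of adenine nucleotides and phosphate move ADP into the matrix and ATP out of it, and bring in the phosphate that ATP synthase uses. Slc25a4, the ADP/ATP carrier ANT1 of heart and skeletal muscle, gave log2 values of 11.53, 11.47 and 11.50 in transgenic mice and 11.54, 11.41 and 11.50 in WT mice. The groups overlapped, and the fold change was 1.01 (95% confidence interval 0.818 to 1.26). Slc25a3, the phosphate carrier, gave 11.23, 11.22 and 11.18 in transgenic mice and 11.21, 11.09 and 11.17 in WT mice. Its fold change of 1.04 (95% confidence interval 0.837 to 1.28) likewise had groups that overlapped, with WT replicate 2 the lowest. These intervals are among the narrowest of the family.

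Slc25a5, the more widely expressed ADP/ATP carrier ANT2, varied more between mice. Its values were 9.56, 9.34 and 9.75 in transgenic mice and 9.99, 9.19 and 9.72 in WT mice, so the highest and the lowest of the 6 were both WT (log2 fold change -0.09, SE 0.24). Slc25a31, the ADP/ATP carrier ANT4 known from testis, had low values of 5.34, 5.47 and 5.63 in transgenic mice and 5.26, 5.43 and 5.29 in WT mice (log2 fold change 0.15, SE 0.15). These groups overlapped. After quantile normalization they no longer did, with transgenic mice higher. Germ cell markers averaged 4.88 to 5.21 in transgenic mice and 4.85 to 5.06 in WT mice over 3 genes, and their part in the value of Slc25a31 was not tested.

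The ATP-Mg/phosphate carriers adjust the size of the adenine nucleotide pool of the matrix, and most of them are switched on by calcium. Slc25a25, a calcium-regulated member, gave 7.78, 6.52 and 7.51 in transgenic mice and 7.16, 6.77 and 7.25 in WT mice. Transgenic replicates 1 and 3 lay above all WT mice and transgenic replicate 2 below them. The fold change was 1.16, with a wide 95% confidence interval of 0.668 to 2.0. Without transgenic replicate 2 its log2 fold change was 0.58 (unadjusted p = 0.0369 from limma, just under the fold minimum), and without transgenic replicate 1 it was -0.04. The related Slc25a41, which lacks the calcium-binding domain, had 5.40, 5.14 and 5.01 in transgenic mice and 5.03, 4.60 and 5.27 in WT mice (log2 fold change 0.21, SE 0.21). Its groups overlapped, and the difference was 0.030 without WT replicate 2, the lowest mouse. Slc25a23 and Slc25a24, also calcium-regulated, had log2 fold changes of -0.08 and 0.07. In Slc25a24 the transgenic mice, at 7.23 to 7.29, lay between WT replicate 1 at 7.67 and WT replicate 2 at 6.72. Slc25a42, a carrier of coenzyme A and adenine nucleotides, had one of the 5 largest negative differences of the family, with 8.07, 8.16 and 8.25 in transgenic mice and 8.53, 8.09 and 8.41 in WT mice (log2 fold change -0.18, SE 0.17). It did not pass the test, and WT replicate 2 lay within the transgenic range. Of the 10 genes in this role group 6 had higher and 4 lower means in transgenic mice, with a median log2 fold change of 0.04.

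The carriers of di- and tricarboxylates link the citric acid cycle to the cytosol. Slc25a10, the dicarboxylate carrier, had the largest positive difference of the family, with 6.62, 6.35 and 6.69 in transgenic mice and 6.55, 5.73 and 6.44 in WT mice. WT replicate 2 was low and WT replicates 1 and 3 lay within the transgenic range. The log2 fold change was 0.32 (SE 0.25, unadjusted p = 0.238 and adjusted p = 1 from limma), and without WT replicate 2 it was 0.06. Slc25a1, the citrate carrier, which exports citrate for fatty acid synthesis, showed the same low value in that mouse. It had 8.61, 8.17 and 8.21 in transgenic mice and 8.14, 7.60 and 8.65 in WT mice (log2 fold change 0.20, SE 0.28). Both genes are also expressed in adipocytes, whose markers averaged 8.16, 7.67 and 8.41 in transgenic mice and 7.76, 7.43 and 8.15 in WT mice over 7 genes, all 7 with higher means in transgenic mice and 0 past the study threshold. Their part in the values of Slc25a10 and Slc25a1 was not tested. Slc25a11, the oxoglutarate/malate carrier of the malate-aspartate shuttle, had 11.51, 11.37 and 11.35 in transgenic mice and 11.57, 11.34 and 11.49 in WT mice. Its groups overlapped and its fold change was 0.963 (95% confidence interval 0.763 to 1.22). Slc25a21, which carries oxoadipate, had a log2 fold change of -0.13.

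Slc25a12 and Slc25a13 encode the aspartate/glutamate carriers aralar and citrin, the partners of Slc25a11 in the shuttle. Slc25a12, the muscle and brain form, had 11.55, 11.57 and 11.41 in transgenic mice and 11.66, 11.43 and 11.61 in WT mice, a fold change of 0.962 (95% confidence interval 0.762 to 1.21). The groups overlapped. Slc25a13, the liver form, had 5.82, 5.72 and 6.03 in transgenic mice and 6.01, 5.59 and 5.53 in WT mice (log2 fold change 0.15, SE 0.18). WT replicate 1 lay within the transgenic range and the other WT mice below it. Hepatocyte markers differed widely between these samples without passing the test, and they averaged 8.05, 5.06 and 8.89 in transgenic mice and 8.95, 6.59 and 4.86 in WT mice over 11 genes. Transgenic replicates 1 and 3 and WT replicate 1 had the 3 highest averages of these markers. The same mice had the 3 highest values of Slc25a13. They also had those of other members, among them Slc25a10, Slc25a15, Slc25a16 and Slc25a24, so this was not particular to Slc25a13. The part of hepatocyte RNA in Slc25a13 was not tested. Slc25a47, a carrier known for its restriction to liver, had 6.89, 6.96 and 7.01 in transgenic mice and 7.12, 6.97 and 6.80 in WT mice. It spanned 0.32 on the log2 scale across mice whose hepatocyte markers averaged 4.86 to 8.95, and its log2 fold change was -0.01 (SE 0.15). Its highest value was in WT replicate 1 and its lowest in WT replicate 3, as for the marker averages. Transgenic replicate 1, with a marker average of 8.05, lay below transgenic replicate 2, with 5.06. The part of hepatocyte RNA in Slc25a47 was not tested.

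Among the other amino acid carriers, Slc25a44, which imports branched-chain amino acids, gave 7.45, 7.28 and 7.39 in transgenic mice and 7.75, 6.75 and 7.61 in WT mice. The transgenic mice lay together and the WT mice on both sides of them, with a log2 fold change of 0.00 (SE 0.27). Without WT replicate 2 it was -0.31 (unadjusted p = 0.0758 from limma). Slc25a15, the ornithine carrier of the urea cycle, was as uneven in WT mice, with 7.64, 7.12 and 7.68 in transgenic mice and 8.01, 7.02 and 7.52 in WT mice. Slc25a22, a glutamate carrier, had 6.60, 6.19 and 6.31 in transgenic mice and 6.79, 6.48 and 6.71 in WT mice. Only transgenic replicate 1 reached into the WT range, and the log2 fold change was -0.30 (SE 0.17, unadjusted p = 0.129 and adjusted p = 1 from limma). Slc25a39 and Slc25a40 are needed for glutathione in the matrix. Slc25a39 had 8.88, 8.76 and 9.05 in transgenic mice and 8.79, 8.32 and 8.94 in WT mice (log2 fold change 0.22, SE 0.20). It was 0.036 without WT replicate 2. Slc25a40 had a log2 fold change of 0.20 (SE 0.16). In both the groups overlapped. The other glutamate carrier, Slc25a18, had -0.14, Slc25a38, which carries glycine for heme synthesis, -0.12, the second ornithine carrier Slc25a2 -0.10 and Slc25a29, a carrier of basic amino acids, -0.04. This role group has 11 genes and counts Slc25a39 and Slc25a40, both with higher means, beside the amino acid carriers. Of the 11 genes 4 had higher and 7 lower means, with a median of -0.04.

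Carriers of cofactors, nucleotides and metals had 2 higher and 7 lower means of 9, with a median of -0.07 and a range of -0.18 to 0.08. Slc25a33, a pyrimidine nucleotide carrier, had 7.41, 7.21 and 7.19 in transgenic mice and 7.72, 7.20 and 7.45 in WT mice. The groups overlapped through WT replicate 2, and the log2 fold change was -0.18 (SE 0.18). Its relative Slc25a36 had a log2 fold change of -0.06. Slc25a37, the iron carrier mitoferrin-1, which serves heme and iron-sulfur cluster synthesis, had 8.11, 8.03 and 8.06 in transgenic mice and 8.34, 7.65 and 8.15 in WT mice. The transgenic mice lay between the WT mice, with a log2 fold change of 0.02 (SE 0.20), and mitoferrin-2 (Slc25a28) had -0.13 (SE 0.18). Slc25a51, the NAD carrier, had -0.10, Slc25a26, which carries S-adenosylmethionine, -0.01 and Slc25a32, the folate carrier, -0.07. Slc25a17, whose protein lies in peroxisomes, had -0.08, and Slc25a16, linked to coenzyme A, 0.08.

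The relatives of the uncoupling proteins had lower means in all 3 cases and did not pass the test. Slc25a30, also called KMCP1, was the most variable gene of the family, with a range of 1.96 over the 6 mice, against a median range of 0.52 over members. It had 7.68, 8.84 and 9.24 in transgenic mice and 9.64, 8.22 and 8.70 in WT mice. The groups overlapped over most of their range, the log2 fold change was -0.27 (SE 0.49), and it was 0.19 without transgenic replicate 1 and 0.13 without WT replicate 1. Slc25a27 (UCP4) and Slc25a14 (UCP5), known mainly from brain, had log2 fold changes of -0.15 and -0.07.

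Ucp3, Ucp1, Mtch1 and Mtch2 belong to the carrier family by protein but do not bear an Slc25a symbol, and Slc25a20 was set aside by the choice of members. Of these 5 measured genes only Ucp3 was past the study threshold, with 8.52, 8.14 and 9.25 in transgenic mice and 9.82, 9.68 and 9.84 in WT mice (log2 fold change -1.14, adjusted p = 1 from limma). Its groups lay apart. The study chose Ucp3 on these arrays, so this is not independent evidence. The paper also reports RT-PCR of Ucp3 with a result similar to that of the arrays, which was not examined here. Slc25a20, which carries acylcarnitines, had 8.70, 8.39 and 8.98 in transgenic mice and 8.88, 8.74 and 8.73 in WT mice (log2 fold change -0.09, SE 0.18). Ucp1, which marks brown fat, had a log2 fold change of 0.33 (SE 0.35), Mtch1 of 0.13 and Mtch2 of 0.01.

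The members whose groups did not overlap were Slc25a35, Slc25a34 and Slc25a46. These 3 of 45 are 6.67%, beside 7.21% of all probe sets and 7.33% of genes, so the share is near the background. In 1 the transgenic mice were higher (2.22%, beside 2.9% of all probe sets) and in 2 lower (4.44%, beside 4.31%). All 3 are in the role group without a settled substrate, which has 8 genes with a median of -0.02. Slc25a34 and Slc25a35 are close relatives of each other. Slc25a35 had 7.53, 7.57 and 7.46 in transgenic mice and 7.33, 7.07 and 7.22 in WT mice. All transgenic mice were higher, with means of 7.52 ± 0.055 and 7.21 ± 0.13 (SD, n = 3 each) in transgenic and WT mice and a fold change of 1.24 (95% confidence interval 0.981 to 1.56, unadjusted p = 0.067 and adjusted p = 1 from limma). Slc25a34 had 6.34, 6.02 and 6.11 in transgenic mice and 6.38, 6.46 and 6.61 in WT mice. All transgenic mice were lower, transgenic replicate 1 by only a little, with means of 6.16 ± 0.17 and 6.48 ± 0.11 (SD, n = 3 each) and a fold change of 0.797 (95% confidence interval 0.619 to 1.03, unadjusted p = 0.0713 and adjusted p = 1 from limma).

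Slc25a46 differs from most of the family in that its protein lies in the outer membrane, where it takes part in mitochondrial shape. It had 9.25, 9.13 and 9.10 in transgenic mice and 9.48, 9.32 and 9.40 in WT mice. All transgenic mice were lower, and the fold change was 0.846 (95% confidence interval 0.676 to 1.06, unadjusted p = 0.121 and adjusted p = 1 from limma). The methods' t-test gave these genes an unadjusted p of 0.0209 for Slc25a35, 0.0472 for Slc25a34 and 0.0224 for Slc25a46 and an adjusted p of 1 each. Their differences of 1.24-fold, 0.797 and 0.846 lie short of the 1.5-fold minimum. The direction of each was the same under the 2 other scalings. The other alternatives could not change it, since the groups lie apart and their values were kept. Among the other genes of this group, Slc25a43, Slc25a45, Slc25a48 and Slc25a53 had log2 fold changes of -0.07 to 0.03.

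**Figure D2:**
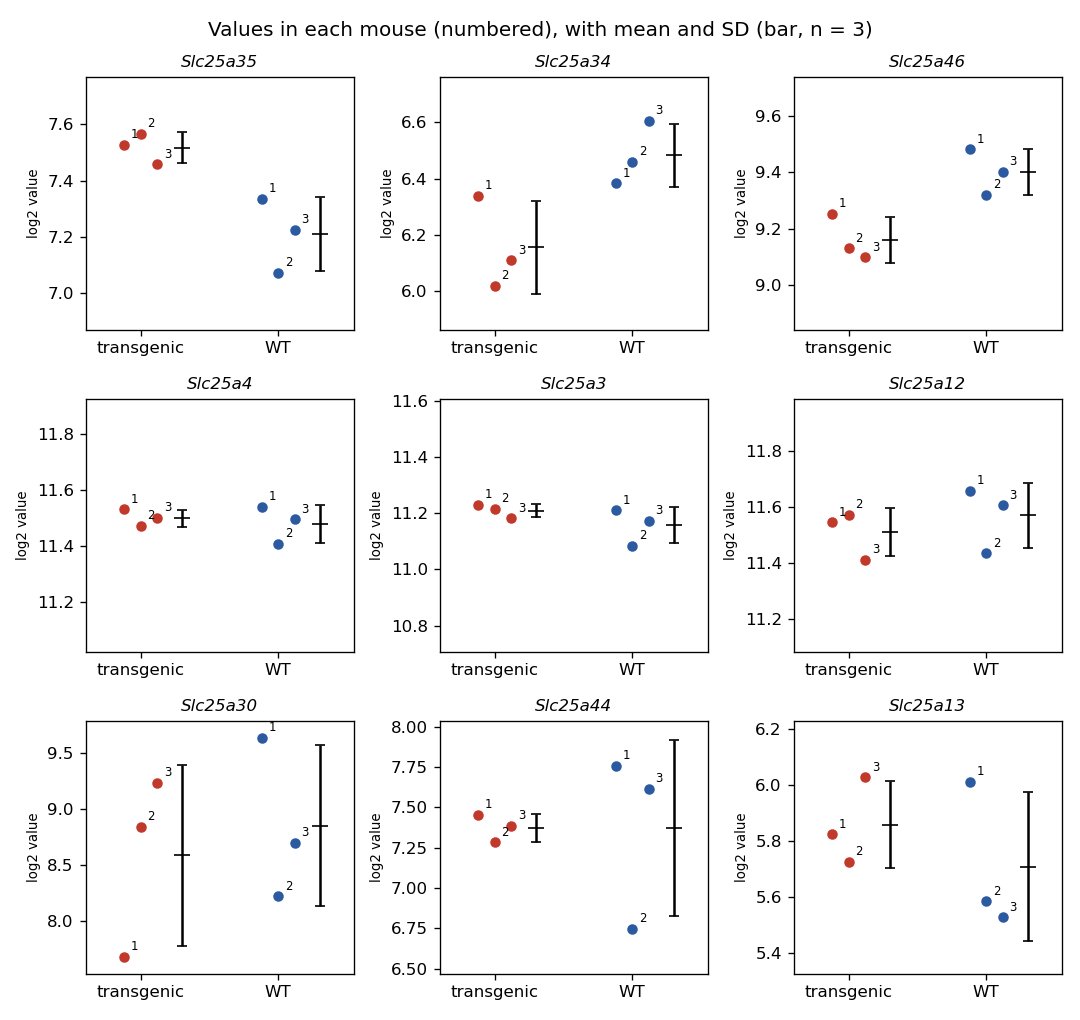
Log2 values (y axis) of 9 Slc25 genes in each transgenic (left) and WT (right) mouse, numbered by replicate, with the group mean and SD (n = 3) as a bar beside the points; the scales differ between panels. The groups lie apart for Slc25a35, Slc25a34 and Slc25a46 and overlap for the other 6 genes.

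The extremes of the Slc25 genes lay most often in WT replicates 1 and 2. WT replicate 2 had the lowest of the 6 values for 21 members (46.7%, beside 28.5% of genes), and WT replicate 1 the highest for 24 (53.3%, beside 28.6%). Both extremes lay in these mice together for 13 members. The family's mean deviation from each gene's own average was 0.05, -0.09 and 0.01 in transgenic replicates 1, 2 and 3 and 0.16, -0.20 and 0.06 in WT replicates 1, 2 and 3, so every transgenic mouse lay between WT replicates 1 and 2. The SD was larger in WT than in transgenic mice for 30 of 45 members, which is 66.7%, beside 62.1% of all probe sets and 63.1% of genes, with a median SD of 0.14 in transgenic and 0.16 in WT mice.

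The same mice stood apart beyond the family. The array of WT replicate 2 had the smallest SD over probe sets, 1.82, and that of WT replicate 1 the largest, 1.96, with 1.86 to 1.92 in transgenic mice and 1.93 in WT replicate 3. Of the 45 members, 34 had a mean at or above 5.79, the median over all probe sets. Among these WT replicate 2 was lowest for 52.9%, beside 43% of the genes above that level, and WT replicate 1 was highest for 64.7%, beside 40.4%. After quantile normalization, which gives all arrays one distribution, WT replicate 2 was lowest for 19 members and WT replicate 1 highest for 19. The mean deviations were -0.19 and 0.16. The shares over all genes after this step were not computed, so these counts have no background beside them. Slow fiber markers ran the other way in WT replicate 2, at an average of 8.45 over 9 genes. They averaged 7.93 to 8.11 in transgenic mice and 8.09 to 8.13 in the other WT mice. Of these 9 genes 2 had higher and 7 lower means in transgenic mice, with a median log2 fold change of -0.16. Means were lower for 54.8% of genes. Of the 9, 0 were past the study threshold and 1 had an unadjusted p under 0.05 from limma, as did 1.72% of genes. The part of slow fibers was not tested.

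**Figure D3:**
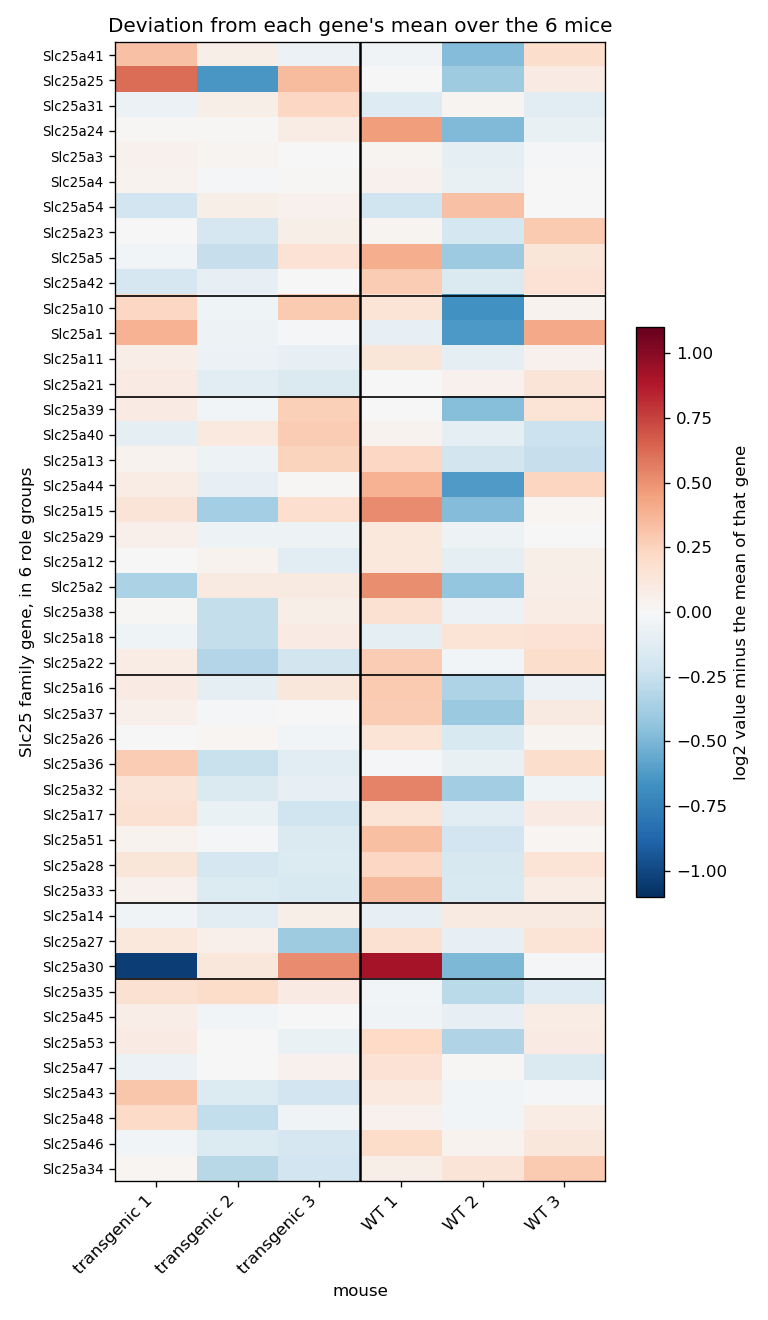
Deviation of each log2 value from that gene's mean over the 6 mice (color) for the 45 Slc25 genes (rows, in role groups) in transgenic (left of the line) and WT mice (right). WT replicate 1 is mostly red and WT replicate 2 mostly blue, and Slc25a30 has the strongest colors.

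**Figure D4:**
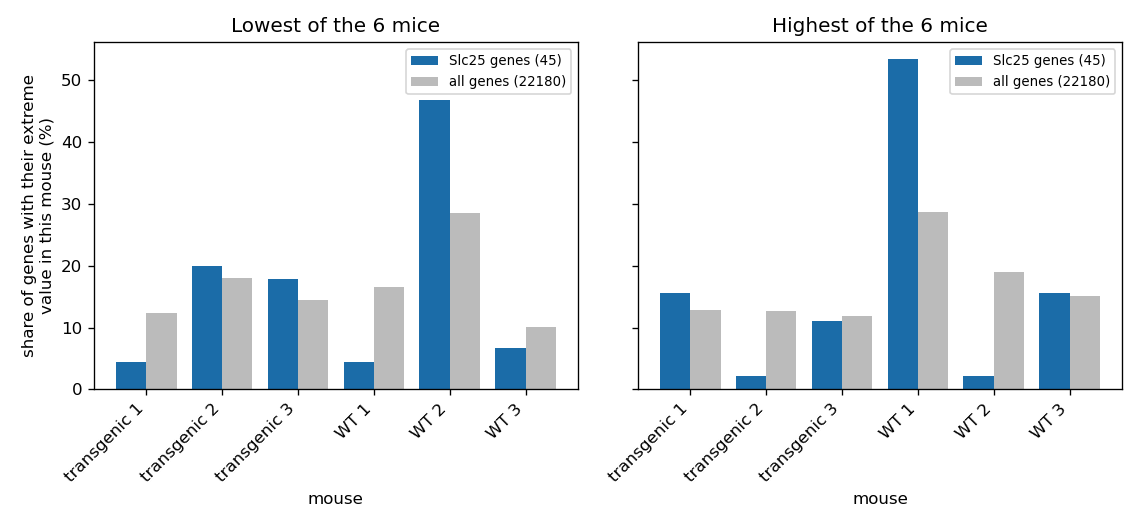
Share (%) of the 45 Slc25 genes and of all 22180 genes that have their lowest (left) or highest (right) value in each mouse (x axis, transgenic mice first). WT replicate 2 holds the lowest value of 46.7% of Slc25 genes and WT replicate 1 the highest of 53.3%.

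Among the genes that work beside the carriers 4 lists were read, of which none held a gene past the study threshold, which 1.49% of all probe sets and 0.537% of genes were. Means were lower in transgenic mice for 51.2% of all probe sets and 54.8% of genes. Of 15 outer membrane channels and components of the TIM22 import pathway, which inserts the carriers into the inner membrane, 2 had higher and 13 lower means, with a median log2 fold change of -0.10 and 0 past the study threshold. Of 12 enzymes of the malate-aspartate shuttle, mitochondrial creatine kinase and related steps 6 were higher and 6 lower, with a median of 0.00 and 0 past it. Of 9 other inner membrane carriers and channels, such as the sideroflexins, 4 were higher and 5 lower, with a median of -0.03 and 0 past it. Of 8 regulators of the PGC-1 axis 1 was higher and 7 lower, with a median of -0.11 and 0 past it. Among them 1, Ppara, had an unadjusted p under 0.05 from limma, as did 1.72% of genes. Its log2 fold change of -0.53 was short of the fold minimum, and it was named after the values were seen. Over all probe sets the median was -0.01.

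Several Slc25 genes are neighbours in the genome. By RefSeq on GRCm38.p6, members lie next to each other among protein-coding genes in 4 places, and these pairs did not share a direction in each case. Slc25a41 and Slc25a23 on chromosome 17 had log2 fold changes of 0.21 and -0.08, and Slc25a54 and Slc25a24 on chromosome 3 had -0.07 and 0.07. Slc25a29 and Slc25a47 on chromosome 12 had -0.04 and -0.01, and Slc25a43 and Slc25a5 on the X chromosome had -0.03 and -0.09.

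The promoters of the family were read to see which letters its members share. RefSeq windows of 300 bases, from 250 before to 50 after a start site, were found for 35 of the 45 members, in 45 windows. The palindromic E-box CACGTG was in 17.8% of these windows, compared with 7.2% of 32851 windows of all genes, and CCAAT on either strand in 48.9% compared with 37.4%. The NRF1 motif, GCGCA and GCGC with any base between them, on either strand was in 4.4% compared with 4.6%, and the ERR motif TNAAGGTCA in 0 windows compared with 1.3%. The E-box lay in the windows of 7 members, shown here because they are the genes that share it, each as 30 bases of GRCm38.p6 read along the gene with the motif in capitals. They lie in 8 windows, since a single E-box of Slc25a14 falls in 2 windows of that gene that overlap.
Slc25a1, chr16:17928439-17928468, minus strand: gctccagacgCACGTGtctctaaactgcac
Slc25a13, chr6:6217279-6217308, minus strand: cagtctgagtCACGTGtcctggcccctcag
Slc25a14, chrX:48623384-48623413, plus strand: cacctccctcCACGTGacgccccacccacc
Slc25a15, chr8:22398335-22398364, minus strand: ccctgccgcaCACGTGccgcggctccgggc
Slc25a31, chr3:40708768-40708797, plus strand: caactggaaaCACGTGttatggtcacatgc
Slc25a33, chr4:149774256-149774285, minus strand: cggcctccgcCACGTGacggccgcgcgcta
Slc25a36, chr9:97111209-97111238, minus strand: cctgggcgatCACGTGaaagaggcgtgcga

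Of these 7 genes 3 had higher and 4 lower means in transgenic mice, with log2 fold changes of -0.18 to 0.20. The NRF1 motif was found in 2 members, of which the phosphate carrier gene Slc25a3 had it within chr10:91124162-91124191. The gene is on the minus strand and the motif on the opposite one, so the sequence along the gene shows its reverse complement in capitals.
Slc25a3: ctttggatctGCGCCTGCGCagtaggaatc
The other was Slc25a31, which also holds an E-box. A match of letters is a description of the window and says nothing of which factor binds there.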

How the data were processed

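Gene expression was measured in gastrocnemius of 3 transgenic and 3 WT mice, 1 array each. The deposited values are log2 expression values per probe set, normalized between arrays by the authors. RMA is named in the submitters' processing notes, and the paper names GCOS and Gene-Spring. RMA can compress the fold changes of dim genes, and how far it did so here was not tested. Arrays give no read depth, and their number limits the precision. The genome build of the array annotation is not given in the sources used here. Genes were named from the platform table, where 23521 probe sets have 1 gene symbol, 1820 several and 16004 none.

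All 41345 probe sets were fitted with limma 3.58.1 (R 4.3.3) as transgenic minus WT, without further normalization or filter, and p-values were adjusted by Benjamini-Hochberg over all of them. The methods' unpaired t-test was an alternative, beside 2 other scalings, a filter on level, arrayWeights, a variance trend, a replicate block and the omission of each mouse. The labels call replicates biological, and nothing more is stated of litters or batches. The p-values therefore set a difference of groups against the spread between these mice, which limma moderates with the variance of all probe sets. The script was tested on simulated data.

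Members and lists were chosen with earlier results of these data known. Given with the value in each mouse were the 5 largest differences each way, members whose groups do not overlap and 12 genes picked for muscle or tissue origin, Slc25a4, Slc25a5, Slc25a3, Slc25a11, Slc25a12, Slc25a13, Slc25a25, Slc25a33, Slc25a37, Slc25a44, Slc25a31 and Slc25a47. The values of Slc25a1, Slc25a15, Slc25a20 and Ucp3 and a range for Slc25a24 were added. The lists were markers of muscle fibers, slow fibers, white and brown adipocytes, hepatocytes, macrophages, endothelium, Schwann cells, red cells and germ cells, and 5 lists of related genes. The promoter motifs were chosen after the values were seen.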

Additional observations from a re-analysis of the deposited data

How the results depend on the processing

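The count of members past the study threshold stayed at 0, and that past an adjusted p at 0, under each of the 13 alternatives run. By arrayWeights 6 of the 45 members had an unadjusted p under 0.05, as did 15.7% of all probe sets. This setting gave WT replicate 3 a weight of 5.15 and WT replicates 1 and 2 weights of 0.46 and 0.37. Transgenic mice had weights of 0.73 to 1.53. The WT mean under arrayWeights therefore rested mostly on WT replicate 3. The number of probe sets past the study threshold was 618 as reported, 2610 by arrayWeights and 281 by the methods' t-test, each of 41345, and 146 of the 20673 kept by the filter on level, which kept 34 members. Averaging several probe sets of a gene was not run, since no member has more than 1. Leaving out 1 mouse gave a median log2 fold change of -0.12 to 0.049 and 18 to 35 members with lower means. It gave 4 to 14 of the 45 members with groups apart, beside 13.4% to 23.5% of all probe sets. The median was 0.049 and the lower means 18 without WT replicate 1. Groups lay apart for 14 members without WT replicate 2, beside 23.5% of all probe sets. Without transgenic replicate 1 they did so for 11, beside 15.6%. A group of 2 is separated more readily by construction. After quantile normalization 5 members had groups apart, with Slc25a31 and Slc25a4 added, beside 8.77% of all probe sets. With array medians subtracted the groups of Slc25a46 overlapped, which left 2 members apart, beside 6.66%.

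Some differences changed sign, among them those of Slc25a30, Slc25a25 and Slc25a41, which are among the 5 largest each way. With arrayWeights log2 fold changes were -0.053 for Slc25a41, -0.066 for Slc25a37, -0.19 for Slc25a44 and 0.12 for Slc25a47, and with array medians subtracted Slc25a44 had -0.0012. Without 1 mouse the ranges were -0.59 to 0.19 for Slc25a30, -0.044 to 0.58 for Slc25a25, -0.017 to 0.049 for Slc25a4, -0.31 to 0.090 for Slc25a5, -0.18 to 0.17 for Slc25a37, -0.31 to 0.19 for Slc25a44 and -0.092 to 0.067 for Slc25a47. The cause was not tested.

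Deviations of same-numbered mice from their group means had correlations of 0.33, 0.40 and -0.17 over probe sets. Those of mice with unlike numbers ran from -0.46 to 0.17. Whether the numbers pair the mice was not tested. With the replicate block the median of members was -0.05 and 0 members were called. With it 921 probe sets were past the study threshold, beside 618 without it.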

Other observations

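Some marker lists not used above were measured in the same mice. Macrophage markers had higher means in transgenic mice for all 6 measured genes, with a median log2 fold change of 0.34 and 1 gene, Cd68, past the study threshold. The 3 measured Schwann cell markers had a median of 0.33 with 0 past it, the 5 endothelial markers 0.10 with 0 past it, and the 7 brown adipocyte markers -0.01 with 0 past it. The 1 measured red cell marker had 0.02. Over all probe sets the median was -0.01, and 1.49% were past the study threshold. Cd68 and the medians were read after the values of these lists were seen.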
